A study of Homo sapiens with 3 samples.

Results

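Forkhead (FOX) genes encode transcription factors that share the forkhead DNA-binding domain, a winged helix. Lettered classes run from FOXA to FOXS: FOXC1, FOXC2, FOXF1 and FOXP1 act in the mesoderm, vessels or heart, FOXO1 and FOXO3 link insulin signalling and stress to metabolism in muscle, and FOXM1 drives genes of the cell cycle. Several members lie in small gene clusters that were kept together in vertebrate evolution, and their enhancers can lie far away in gene deserts or inside neighbouring genes. Of 37 family genes listed, 31 had a promoter fragment among the calls. Such a fragment is a HindIII fragment listed first in a call and holding an annotated transcript start of the gene. FOXN3 and FOXP2 each had a pair, so that there were 33 forkhead promoter fragments among 19075 promoter fragments in all.

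The calls came from promoter capture Hi-C (PCHi-C), which joins DNA ends that lie close together in fixed nuclei and enriches the products for fragments carrying promoters. The cells were hESC-CMs, that is, cardiomyocytes made in culture from WA09 (H9), an established line of human embryonic stem cells, and enriched in medium with lactate and no glucose. The authors checked purity with the markers MYH7 and TNNT2, and it was not complete. All 3 biological replicates were of this single group, so there was no contrast between conditions, and the identity of the cells cannot be checked from contact calls. Replicates 1, 2 and 3 held 112473, 109731 and 110740 calls. Each call has a CHiCAGO score, which measures the excess of read pairs over a background set by distance and technical noise. Scores started at 5, so a contact that is not listed is not shown to be absent. Read depth was not analysed here.

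The forkhead promoter fragments made 602 contacts in the union of the replicates, with 393 in replicate 1, 384 in replicate 2 and 392 in replicate 3. A contact is a pair of fragments, counted once. All 3 replicates called 220 of them (36.5%), against 24.0% of the contacts of all promoter fragments. There were 127 contacts with calls in 2 replicates and 255 with a call in 1. Contacts in all 3 replicates made up 56.0%, 57.3% and 56.1% of the forkhead contacts of replicates 1, 2 and 3, and 42.9%, 43.9% and 43.5% of all contacts. Each of these shares counts the same contacts, 220 of the forkhead and 48209 of all. Their spread over the replicates therefore reflects only the number of contacts per replicate, and does not measure how recurrence varies. Without FOXP2, the member with the most partners, the share of the union was 36.0%.

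Partners were spread unevenly over the family. A forkhead promoter fragment had a median of 9 partners, against 6 for all promoter fragments, and per replicate the forkhead median was 8, 4 and 6.5 against 4 in each, so this difference was not outside the spread between replicates. Each median is over the promoter fragments with a call in the union or in that replicate. Of the 33 fragments, 9 had 20 or more partners (27.3%, background 16.2%), and 24 had a partner called in all 3 replicates (72.7%, background 51.9%). By gene, 22 of the 31 had a partner in all 3 replicates. Only 6 genes had 10 or more such partners: FOXP2, FOXF2, FOXC1, FOXC2, FOXO1 and FOXP1. Together these had 149 of the family's 208 distinct partner fragments in all 3 replicates. The 9 genes with partners but none in all 3 replicates were FOXD3, FOXE1, FOXH1, FOXI1, FOXI2, FOXK2, FOXN1, FOXP4 and FOXQ1, with 1 to 6 partners each.

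**Figure D1:**
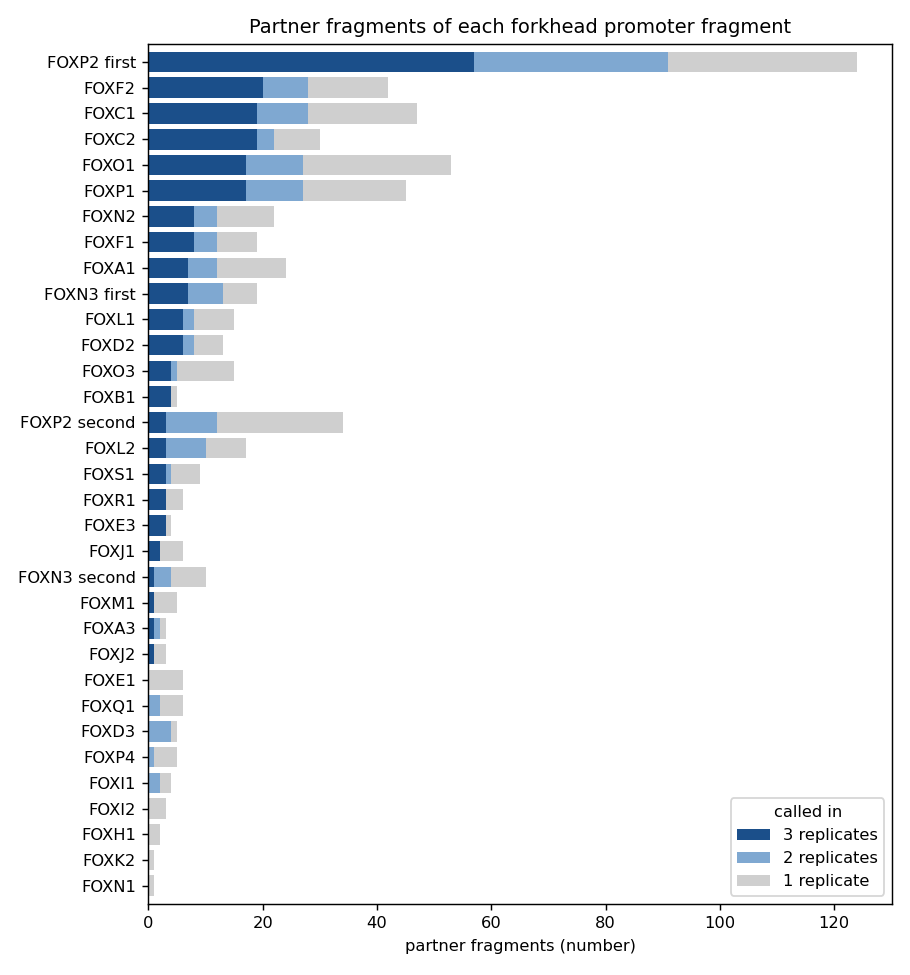
Number of partner fragments (horizontal axis) of each of the 33 forkhead promoter fragments, split by the number of replicates that called the contact. The first FOXP2 fragment has 124 partners, 57 of them in all 3 replicates, and FOXN1 and FOXK2 have 1 each.

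Of the listed genes, 6 had no promoter fragment among the calls: FOXA2, FOXD1, FOXD4, FOXJ3, FOXK1 and FOXN4. A start of FOXA2, a pioneer factor of endoderm, lay in a fragment listed only as a partner, called by 2 promoter fragments and in all 3 replicates by 1. The FOXD1 start was called by 1 promoter fragment, that of OTP, and the FOXN4 start by 3, none in all 3 replicates. FOXD4, FOXJ3 and FOXK1, a factor of muscle progenitors, had no start in any listed fragment. Whether their promoters were among the captured fragments was not analysed here.

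FOXC1, FOXF2 and FOXQ1 lie next to each other at the end of the short arm of chromosome 6, FOXC1 being a regulator of mesoderm, eye and outflow tract and FOXF2 of palate and gut mesenchyme. The FOXC1 fragment (chr6:1607572-1615871, GRCh37) had 29, 33 and 32 partners in replicates 1, 2 and 3 and 47 in the union. All 47 lay downstream of the gene, at 477 to 1230 kb, and 19 were called in all 3 replicates. Groups of 10 and 3 of these lay in GMDS, which encodes a GDP-mannose dehydratase of fucose synthesis. The highest score was at an intronic GMDS fragment of 318 bp, chr6:2104492-2104809, 493 kb away, with 27.21 in replicate 1, 33.84 in replicate 2 and 34.2 in replicate 3 (mean 31.8 ± 3.94, SD, n = 3).

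Scores around it formed a single summit. The fragment before it, chr6:2103477-2104491, scored 23.56, 23.76 and 24.37, and the listed fragment after it, chr6:2104847-2106652, scored 19.32, 19.46 and 25.42. Both were below the summit in every replicate. The outermost of these 10 GMDS fragments, chr6:2095724-2098934 and chr6:2110798-2112808, had means of 8.91 ± 1.73 and 7.26 ± 0.874. The first 300 bases of the summit fragment are shown on the plus strand, as the piece of DNA with the highest mean score in the family. Capitals mark the part of the HindIII site left at its start.
FOXC1 summit, chr6:2104492-2104791: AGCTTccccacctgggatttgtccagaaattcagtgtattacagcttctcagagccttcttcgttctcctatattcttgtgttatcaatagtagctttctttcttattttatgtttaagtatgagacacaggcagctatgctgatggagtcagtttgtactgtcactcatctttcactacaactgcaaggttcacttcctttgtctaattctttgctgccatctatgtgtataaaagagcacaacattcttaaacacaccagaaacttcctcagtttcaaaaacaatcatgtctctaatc

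A separate FOXC1 contact reached the promoter fragment of the long non-coding RNA genes LINC01600 and LINC02521 at 1023 kb, chr6:2633562-2635464, and scored 30.41, 26.03 and 27.87. Its replicates overlapped those of the GMDS summit, so the order of these contacts was not settled. This promoter fragment itself called the GMDS summit in all 3 replicates. FOXC1 also contacted the promoter fragment of MYLK4, a myosin light chain kinase family gene, at 1142 kb, with 8.4, 6.12 and 8.25, below both of these contacts in every replicate.

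FOXF2 reached the other way. Its fragment (chr6:1387542-1391564) had 27, 38 and 25 partners in the 3 replicates, and all 40 partners on chromosome 6 lay upstream. The highest was chr6:798748-800332 between EXOC2 and FOXQ1, 590 kb away, with 18.53, 29.9 and 14.84 (mean 21.1 ± 7.85). Replicate 2 was high there, and also at the adjoining chr6:796030-798747, with 16.31, 26.76 and 19.11. A group of 9 partners at 759 to 808 kb lay in EXOC2, which encodes an exocyst subunit. FOXC1 and FOXF2 lie 222 kb apart and shared none of their 47 and 42 partners. FOXQ1, which lies between the FOXF2 fragment and its partners, had 6 partners, none in all 3 replicates. Of these, 2 were also partners of FOXF2, among them chr6:796030-798747, which scored 5.1 in replicate 1 and 5.17 in replicate 3 from FOXQ1.

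On chromosome 16, FOXF1, FOXC2 and FOXL1 showed a like division. FOXF1 acts in lung and gut mesenchyme and vessels, FOXC2 in lymphatic vessels and the aortic arch, and FOXL1 in gut mesenchyme. All 19 partners of FOXF1 lay upstream, all 30 of FOXC2 and all 15 of FOXL1 downstream. The best FOXF1 partner, chr16:86107265-86108173, lay between IRF8 and FOXF1 at 437 kb and scored 18.22, 14.3 and 21.58. FOXF1 also reached the promoter fragment shared by COX4I1, a cytochrome c oxidase subunit gene, and EMC8 at 711 kb, with 10.88, 5.86 and 5.9. FOXF1 lies 53.1 kb from FOXC2 and shared no partner with either neighbour.

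FOXC2 and FOXL1 lie 16.4 kb apart and shared partners. All 15 partners of FOXL1 were among the 30 of FOXC2 (100% and 50%), and 5 were shared among those called in all 3 replicates, of 6 for FOXL1 and 19 for FOXC2. Sharing was not counted for other neighbouring promoter fragments. Neither sharing nor its lack, in this or the other clusters, is therefore shown to be particular to the family. Their best partner was the same fragment, chr16:87092182-87096538, at 497 kb from FOXC2 and 480 kb from FOXL1, between FOXL1 and C16orf95. From FOXC2 it scored 19.65, 21.59 and 20.14, and from FOXL1 16.87, 16.01 and 13.08. The FOXC2 scores were higher in every replicate, and the groups did not overlap. FOXC2 had a further 14 partners in all 3 replicates at 670 to 738 kb, in fragments that overlap C16orf95, where FOXL1 had 1. The shared fragment of 4357 bp held 1 match to the forkhead core motif, shown with 30 bases on each side and the motif in capitals.
FOXC2 and FOXL1 shared partner, chr16:87095537-87095603, plus strand: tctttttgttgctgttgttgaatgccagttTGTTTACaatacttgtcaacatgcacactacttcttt

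FOXD2 and FOXE3, 27.6 kb apart on chromosome 1, are known for roles in kidney and palate mesenchyme and in the lens. They too shared partners. All 3 FOXE3 partners in all 3 replicates were among the 6 of FOXD2. The best partner of both was a fragment of 201 bp between FOXD2 and TRABD2B, chr1:48182462-48182662. From FOXD2, at 275 kb, it scored 13.22, 15.9 and 15.67. From FOXE3, at 302 kb, it scored 7.88, 8.13 and 13.37, so FOXD2 was higher in each replicate, though the groups overlapped. The neighbouring promoter fragment of the long non-coding RNA gene FOXD2-AS1 had 9 partners, 6 in all 3 replicates. Its best one was this same fragment, 287 kb away, with a mean of 15.2. Besides FOXD2, 5 promoter fragments called this partner, 4 of them in all 3 replicates. They include those of FOXE3 and FOXD2-AS1, and others with starts of CYP4A22-AS1 or LINC00853. The partner was therefore not particular to FOXD2 and FOXE3. The shared fragment is shown whole on the plus strand, with the HindIII end in capitals, and held no match to the motif.
FOXD2 and FOXE3 shared partner, chr1:48182462-48182662: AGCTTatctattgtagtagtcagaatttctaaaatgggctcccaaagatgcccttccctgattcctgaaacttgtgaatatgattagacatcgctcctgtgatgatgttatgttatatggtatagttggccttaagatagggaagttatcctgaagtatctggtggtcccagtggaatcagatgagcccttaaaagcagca

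**Figure D2:**
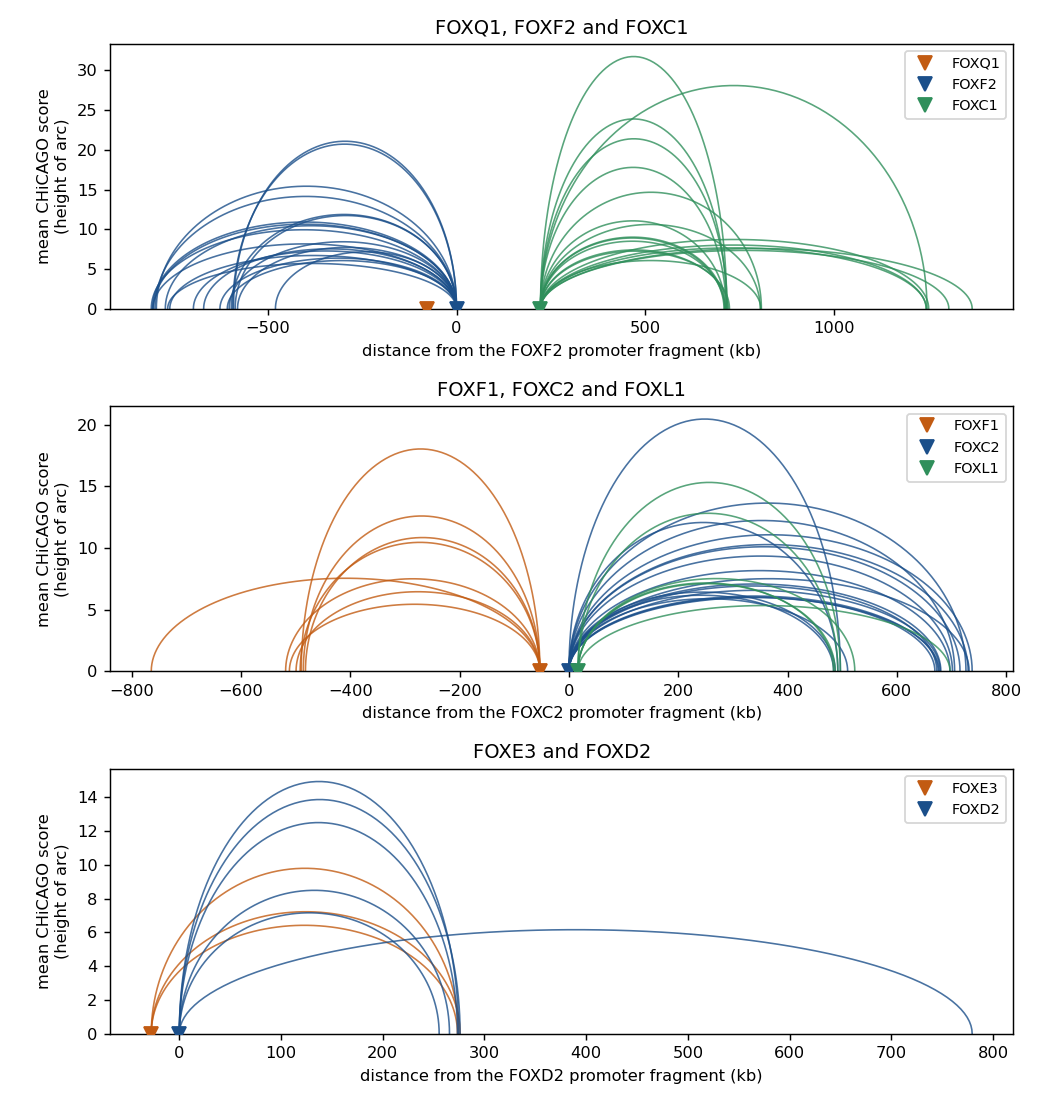
Contacts called in all 3 replicates in the 3 gene clusters, as arcs from each promoter fragment (triangle) to its partner, with distance in kb on the horizontal axis and the mean CHiCAGO score as the height of the arc. FOXF2 and FOXF1 reach one way and FOXC1, FOXC2 and FOXL1 the other, while the FOXE3 arcs end where FOXD2 arcs end.

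FOXO1 and FOXO3 are targets of insulin signalling through AKT that control stress resistance, autophagy and metabolism in muscle, including cardiac muscle. The FOXO1 fragment (chr13:41236517-41247988) had 30, 30 and 37 partners and 53 in the union, all downstream at 543 to 1009 kb. Of the 17 in all 3 replicates, 16 lay in a stretch of 94.4 kb at COG6, a gene of a Golgi tethering complex. The best was an intronic COG6 fragment of 168 bp, chr13:40260583-40260750, at 982 kb, with 22.7, 17.28 and 25.21. Close to it, chr13:40258068-40258281 scored 20.3, 24.79 and 19.29, and the replicates of the pair overlapped. The 168 bp fragment is shown whole on the plus strand, with the HindIII end in capitals. It held no match to the motif.
FOXO1 best partner, chr13:40260583-40260750: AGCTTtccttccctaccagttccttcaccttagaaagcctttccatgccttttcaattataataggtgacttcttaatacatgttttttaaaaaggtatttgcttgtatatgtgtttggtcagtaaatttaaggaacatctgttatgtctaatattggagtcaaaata

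FOXO3 differed in kind. Its fragment (chr6:108877580-108883241) had 9, 8 and 7 partners, and all 4 called in all 3 replicates were promoter fragments. That of ARMC2, a gene of sperm flagella, at 290 kb scored 14.6, 22.86 and 20.48. A promoter fragment in SESN1, a sestrin gene of the stress response, at 500 kb scored 18.57, 19.38 and 17.27. The start it holds is that of RNU6-653P. Those of ARMC2-AS1 and CD164 followed with 9.33, 8.09 and 15.06, and with 7.12, 6.59 and 9.83. The ranges of the ARMC2 and SESN1 scores overlapped, and both lay above the CD164 scores in every replicate. Over the family 13 of 33 promoter fragments had another promoter fragment as partner in all 3 replicates (39.4%), against 30.4% of all, and 59 of the 602 contacts (9.80%) joined promoter fragments, against 9.59% of all contacts.

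FOXP1 and FOXP2 are long genes of the FOXP class, which bind DNA as dimers. FOXP1 acts in the growth of the myocardium and in valve and septum formation, and FOXP2 is best known for speech and brain development. The FOXP1 fragment (chr3:71631753-71634136) had 30, 30 and 29 partners, 45 in the union, all on the side of the gene body and beyond. Of the 17 in all 3 replicates, 9 lay inside FOXP1 itself, at 276 to 578 kb, 5 at 1049 to 1055 kb and 3 at 1494 to 1520 kb. The best was chr3:70578479-70580747, past the end of FOXP1 towards MDFIC2, at 1053 kb, with 25.49, 23.11 and 19.74. The 9 fragments in the gene scored lower, with means of 6.08 to 9.76. The highest of them, chr3:71111331-71112489, had 11.52, 9.11 and 8.64, below the best contact in each replicate.

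FOXP2 had the most partners of the family. Its first fragment (chr7:113722909-113730629) had 87, 94 and 91 partners and 124 in the union, and ranked 48 of 19075 by partners and 24 by partners in all 3 replicates. All lay downstream. Of the 57 in all 3 replicates, 6 lay in FOXP2 itself and 51 lay over 1 Mb away, in groups of 21 at 1580 to 1666 kb, 19 at 1758 to 1856 kb, 10 at 2020 to 2077 kb and 1 at 2131 kb. The first of these groups lay between MDFIC and TFEC, the next began there and ran into TFEC, the third overlapped TFEC, and the last lay in TES. TFEC is a gene of the MITF family of transcription factors. The best partner was chr7:115545602-115547537 at 1820 kb, with 27.65, 25.34 and 24.58. At chr7:115555395-115555743, scores were 19.65, 15.31 and 30.57, with replicate 3 well above the others. The best partner held 1 match to the motif, here on the minus strand, shown with 30 bases on each side of it.
FOXP2 best partner, chr7:115547047-115547113, plus strand: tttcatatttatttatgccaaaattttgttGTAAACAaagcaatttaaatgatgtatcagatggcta

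The second FOXP2 fragment (chr7:114055902-114060344), at a start inside the gene 331 kb away, had 17, 15 and 17 partners. Of its 34 partners in the union, 32 were also partners of the first fragment (94.1% of the second and 25.8% of the first), and all 3 called in every replicate were shared. Its best partner, chr7:115578773-115582702 at TFEC, scored 6.23, 6.11 and 9.76 from the second and 10.57, 13.69 and 7.7 from the first fragment. The first was higher in replicates 1 and 2 and lower in replicate 3, so the groups overlapped.

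**Figure D3:**
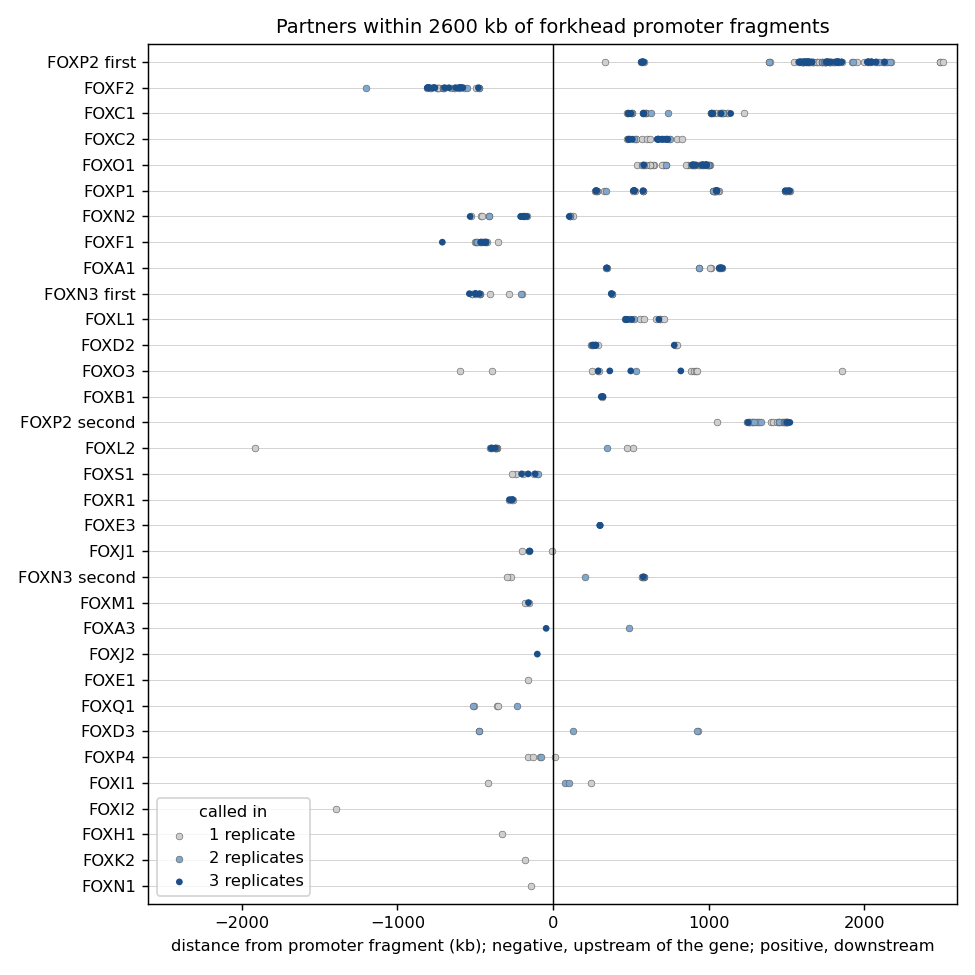
Distance in kb of each same-chromosome partner from its promoter fragment, negative for upstream and positive for downstream of the gene, with 1 row per promoter fragment and the shade giving the number of replicates. Rows such as FOXC1, FOXO1, FOXP1 and FOXP2 have points on 1 side, FOXP2 runs out furthest with contacts in all 3 replicates, and 25 partners beyond 2600 kb are left out.

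Other members had fewer contacts. FOXA1, a pioneer factor of endoderm, had 11, 15 and 17 partners and 7 in all 3 replicates. The best was the promoter fragment of NKX2-1, a lung and thyroid regulator, at 1075 kb (chr14:36985647-36991402), with 18.82, 13.13 and 20.73. A nearby fragment that holds a start of SFTA3, chr14:36982644-36983278, scored 14.88, 17.25 and 11.36. FOXN2 had 17, 12 and 13 partners and 8 in all 3 replicates, the best being chr2:48340126-48342728 between FBXO11 and FOXN2, with 18.87, 19.06 and 20.34. It also reached the promoter fragment of MSH6, a mismatch repair gene, at 532 kb, with 9.82, 9.41 and 16.72. FOXB1, known for roles in the brain, had 4 of its 5 partners in all 3 replicates, in a stretch of 15.0 kb at 310 to 322 kb between FOXB1 and ANXA2. The best of these, chr15:60616880-60617460, scored 9.62, 9.1 and 7.61.

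FOXN3, a repressor of the FOXN class, had a pair of promoter fragments 204 kb apart, and these formed the single contact inside the family. It was not listed in replicate 1, scored 5.34 in replicate 2 and 6.69 in replicate 3, and scored 8.83 on the merged replicates. No listed contact joined promoter fragments of different members. Both FOXN3 fragments had the same best partner, chr14:89506122-89506499, between TTC8 and FOXN3. The promoter fragment of EFCAB11 and TDP1 also called this partner in all 3 replicates. The first fragment, at 377 kb, scored 11.62, 13.56 and 12.24, and the second, at 581 kb, scored 11.18, 11.66 and 5.78. The first was higher in each replicate, and the groups overlapped narrowly at 11.62 and 11.66. The first 300 bases of this partner are shown on the plus strand, with the HindIII end in capitals.
FOXN3 shared partner, chr14:89506122-89506421: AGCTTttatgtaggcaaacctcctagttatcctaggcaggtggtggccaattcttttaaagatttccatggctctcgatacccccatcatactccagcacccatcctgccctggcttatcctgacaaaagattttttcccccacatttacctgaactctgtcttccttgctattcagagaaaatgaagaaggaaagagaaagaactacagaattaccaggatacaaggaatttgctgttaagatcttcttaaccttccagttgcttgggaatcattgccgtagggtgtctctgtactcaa

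FOXM1, an activator of mitotic genes, had 2, 3 and 2 partners, of which 1 was called in all 3 replicates. This fragment, chr12:3139732-3146989, lay in an intron of TEAD4, a DNA-binding partner of YAP, at 158 kb, and scored 6.1, 6.2 and 6.65. The FOXM1 promoter fragment also holds starts of RHNO1 and TULP3, so its contacts cannot be assigned to FOXM1 alone. The same holds for other members with a start of another gene in the fragment, such as FOXA1 with TTC6, FOXA3 with SYMPK, FOXS1 with DUSP15 and FOXJ1 with RNF157. The remaining members with a contact in all 3 replicates were FOXA3, FOXJ1, FOXJ2, FOXL2, FOXR1 and FOXS1, with 1 to 3 each and a best mean score of 6.37 for FOXA3 to 13.7 for FOXJ2. Among the 9 genes with no contact in all 3 replicates the highest score was 13.58, for FOXE1 in replicate 3 alone, with a fragment in NR6A1 at 26821 kb. Like the FOXE1 partner, that of FOXJ2 was chosen after the values were seen. FOXJ2 had its contact at the promoter fragment of the glucose transporter gene SLC2A3, 101 kb away, with 12.88, 17.04 and 11.03.

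**Figure D4:**
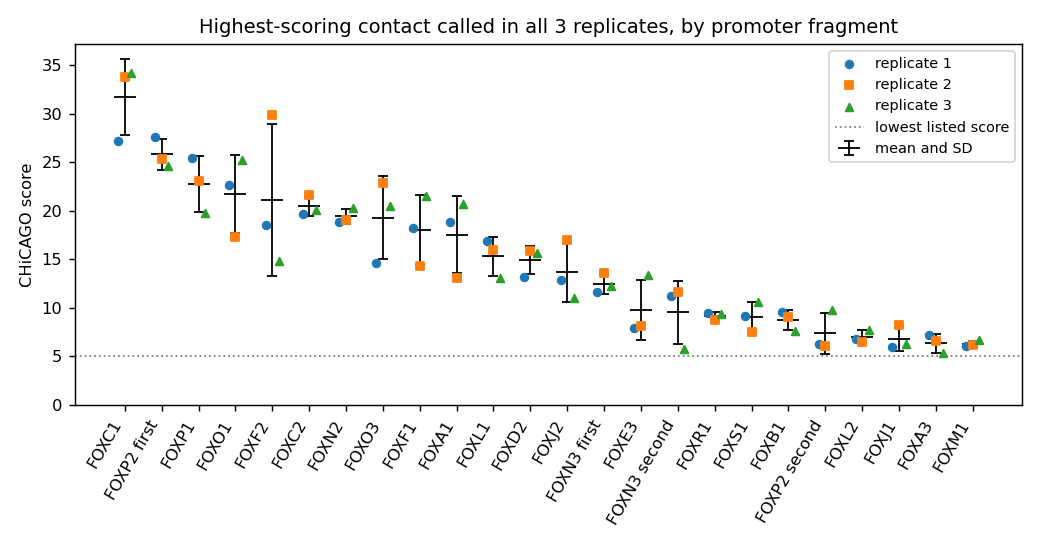
CHiCAGO score (vertical axis) of the highest-scoring contact called in all 3 replicates for the 24 promoter fragments that had one, with a symbol per replicate, a bar at the mean and error bars of 1 SD; the dotted line is the lowest listed score, 5. Means run from 31.8 for FOXC1 to 6.32 for FOXM1, and FOXF2 has the widest spread of those above 20, with 14.84 to 29.9.

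Forkhead contacts lay at intermediate distances. Both fragments were on the same chromosome in 597 of 602 contacts, with a median distance of 741 kb in the union against 716 kb for all promoter fragments. The 5 contacts with another chromosome (0.831%, against 3.87% of all contacts) belonged to FOXF2, FOXM1, FOXP2 and FOXQ1, and none was called in all 3 replicates. Within replicates 1, 2 and 3 the forkhead median was 697, 738 and 759 kb and that of all promoter fragments 541, 549 and 580 kb, without overlap. Without FOXP2 the forkhead medians were 532, 582 and 581 kb in replicates 1, 2 and 3, a range that overlapped that of all promoter fragments, and 580 kb in the union. Contacts over 1 Mb made up 35.8%, 38.1% and 39.4% of the forkhead same-chromosome contacts in replicates 1, 2 and 3, against 33.4%, 34.1% and 36.0% of all, higher in each replicate though the ranges overlapped. In the union the order was the other way, with 39.2% of the forkhead and 42.1% of all. Without FOXP2 the forkhead share was 14.6%, 16.5% and 19.1% in the replicates and 19.8% in the union, below that of all promoter fragments in each.

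By distance, 31.5% of forkhead contacts lay between 500 and 1000 kb, against 18.3% of all, and 8.38% lay over 2000 kb, against 26.3% of all. Under 200 kb, 11 of 39 forkhead contacts (28.2%) were called in all 3 replicates, against 41.3% of all contacts at that distance. Between 500 and 1000 kb it was 77 of 188 (41.0%) against 26.9%, and between 1000 and 2000 kb 62 of 184 (33.7%) against 18.7%. Without FOXP2 it was 71 of 179 (39.7%) between 500 and 1000 kb. Between 1000 and 2000 kb only 63 forkhead contacts were left without FOXP2, 19 of them in all 3 replicates (30.2%). Contacts of 1 promoter fragment share its reads and are not independent, so no test was made. Of the 33 fragments, 5 had a contact over 1 Mb in all 3 replicates (15.2%, background 9.10%): those of FOXA1, FOXC1, FOXP1 and both of FOXP2.

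**Figure D5:**
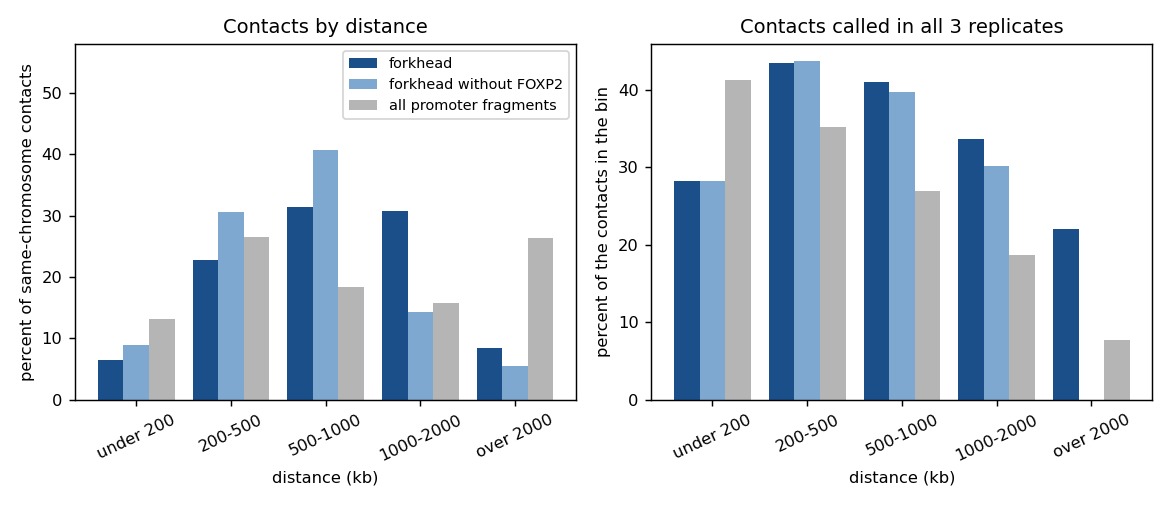
Left, percent of same-chromosome contacts in each class of distance (kb); right, percent of the contacts in the class that were called in all 3 replicates, for forkhead promoter fragments, the same without FOXP2, and all promoter fragments. The forkhead share is above that of all promoter fragments at 500 to 1000 kb in both panels, and without FOXP2 none of the 24 contacts over 2000 kb was called in all 3 replicates.

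Partners were often on 1 side. This was compared after the values were seen. Among forkhead promoter fragments with 10 or more same-chromosome partners, 10 of 16 had all of them on 1 side, against 34.6% of all such promoter fragments. These were FOXC1, FOXC2, FOXD2, FOXF1, FOXF2, FOXL1, FOXO1, FOXP1 and both FOXP2 fragments. They are not 10 independent cases. All 15 partners of FOXL1 were partners of FOXC2, and 32 of the 34 of the second FOXP2 fragment were partners of the first. FOXA1, FOXL2, FOXN2, FOXO3 and both FOXN3 fragments had partners on both sides. As to what the partners were, the partners that were not promoter fragments were classed by the protein-coding genes they overlap. Of all forkhead contacts, 48.3% ended in such a fragment with no gene, against 42.7% of the contacts of all promoter fragments, 36.7% in one with another gene, against 43.9%, and 5.15% in one that overlaps the gene itself, against 3.81%. Without FOXP2 the share with no gene was 38.7%, below that of all contacts.

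The forkhead core motif was searched in the partner fragments as the letters TGTTTAC on either strand, read as GTAAACA on the other. Of 486 forkhead partner fragments that were not promoter fragments, 153 held it (31.5%), against 30.9% of 108063 such fragments in all. Of the 188 called in all 3 replicates, 66 held it (35.1%), against 29.3%. The forkhead partners in all 3 replicates held 0.183 matches per kb and were 42.3% G and C, against 0.155 matches per kb and 42.8%. Of the 24 best partners, counted once for each promoter fragment, 6 held a match, the fragment shared by FOXC2 and FOXL1 being counted for each. Unlike the sets above, these include promoter fragments, among them the matches for FOXA1, FOXA3 and FOXJ2. The count therefore has no background share beside it. Among RefSeq promoter sequences of 300 bases (GRCh38.p14), which matched 27 of the 37 genes with 38 promoters, 1 promoter held it, that of a FOXP1 start, against 3.42% of 35116 promoters. FOXA2, FOXC2, FOXE3, FOXF1, FOXH1, FOXJ1, FOXL1, FOXM1, FOXN2 and FOXS1 were not matched. A match is a description of letters and not a binding site.

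Of the other family genes examined, FOXO4, FOXO6, FOXP3 and FOXR2 had a promoter fragment among the calls, with 2, 1, 3 and 6 partners and none in all 3 replicates, and FOXI3 and the FOXD4-like genes FOXD4L1, FOXD4L3, FOXD4L4, FOXD4L5 and FOXD4L6 had none. Among neighbouring long non-coding RNA genes, FOXC2-AS1, FOXD3-AS1, FOXN3-AS1 and FOXP4-AS1 start in the fragment of the member they are named for, so their contacts are the same calls. FENDRR and FOXCUT had no promoter fragment among the calls.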

How the data were processed

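PCHi-C was carried out on 3 biological replicates of hESC-CMs. The authors mapped reads to GRCh37 with HiCUP and called contacts between HindIII fragments with CHiCAGO at default settings. The deposited files, 1 per replicate and 1 for the merged replicates, list the CHiCAGO score of each pair with a score of 5 or more, and tool versions are not given in the sources used here. No read was mapped again, and depth was not analysed here. Scores depend on distance and on the reads of each promoter fragment, and are not contact strengths.

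Transcript starts came from GENCODE 44 lifted to GRCh37. Pairs were counted once, in either order, and matched between replicates by identical fragments. Of 519 forkhead promoter and partner fragments, 519 had both ends at HindIII sites. Distances are between fragment midpoints. Partners within 40 kb of each other were joined into groups. Spread is the SD, n = 3, and groups of scores were called different where replicates did not overlap, since 3 values against 3 cannot reach significance in an exact test. Replicates were biological replicates by label. Python 3.11.15, numpy 2.4.6, pandas 2.3.3, pysam 0.24.0 and matplotlib 3.10.9 were used, and counting was tested on simulated data. For the motif, 1 partner fragment on the mitochondrial sequence was left out.

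Values were given for the gene clusters, FOXO1, FOXO3, FOXP1, FOXM1, FOXK1, the 5 other members with the most partners in all 3 replicates, any contact inside the family, and the best partner of each. Some items of these lists are not reported here. Members and lists were chosen with earlier results of these data known. Alternatives were a score of at least 10, the merged calls, promoter fragments listed first only, protein-coding starts only, matching within 5 kb and each replicate left out. Leaving out FOXP2 was added after the data were seen.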

Additional observations from a re-analysis of the deposited data

Results flagged for a closer look

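The merged calls were not used in the main values. They held 556 contacts at the forkhead promoter fragments, and 96 of these were called in no single replicate, which is what marked them for a closer look. Their median score was 5.69 and their highest 7.38, for FOXD2, and 0 reached 10. The highest after it were 7.34 for FOXI1 and 7.1 for FOXM1. The same count over all promoter fragments is not given here, so the 96 are not shown to be particular to the family.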

How the results depend on the processing

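Requiring a score of at least 10 left 152 of the 602 forkhead contacts. The share called in all 3 replicates was then 39.5%, the median number of partners 4, the median distance 1025 kb, the share over 1 Mb 51.3%, the share on another chromosome 1.32%, the share with another promoter fragment 10.5%, and no contact joined forkhead promoter fragments (0). On the merged calls the median number of partners was 12.5, the median distance 631 kb, and the shares over 1 Mb, on another chromosome and with another promoter fragment 31.1%, 0% and 7.73%. Each median number of partners is over the fragments with a call under that alternative. FOXH1, FOXI2, FOXK2, FOXN1 and FOXP4 had no merged call, so the 12.5 leaves them out. It is not over the same fragments as the main value, and does not show a rise in partners per fragment. With promoter fragments listed first only, the share with another promoter fragment was 5.40%, since the order of listing decides which of these are kept. Counting partners within 5 kb as the same raised the share in all 3 replicates to 70.9%. With each replicate left out in turn, the share called in all that remained was 48.9 to 52.2%, the median number of partners 6 to 9, the median distance 720 to 787 kb and the share with another promoter fragment 9.28 to 10.2%. Without FOXP2, an alternative chosen after seeing the data, the median distance was 580 kb, the share over 1 Mb 19.8% and the share with another promoter fragment 11.3%. Leaving out a replicate, or matching within 5 kb, makes a call in all easier by construction. A score limit of 10 can only lower the number of contacts. The cause of the other moves was not tested. Restricting to protein-coding starts gave the same 602 contacts. For the 24 best contacts the merged score was above the mean of the replicates in 23 and below it in 1. No paired analysis was possible because the samples form 1 group. The limit of a score of 5 hides weaker contacts.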
